A study of Homo sapiens with 24 samples.

Results

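The genes described here encode the mitochondrial ribosomal proteins. They were taken as every gene on the array whose symbol begins with MRPL or MRPS followed by a number, read from its brightest probe set that names 1 gene. This gave 75 of the 18134 genes with such a probe set. Of these, 74 encode subunits of the mitochondrial ribosome, 47 with the L symbols of the large subunit and 27 with the S symbols of the small subunit. The remaining 1, MRPL20-AS1, is a transcript named for its antisense position to MRPL20 and entered no count. MRPL23, MRPL53, MRPS24 and the pseudogene MRPS31P5 were found only on probe sets that name several genes and have no value here. The level of each gene is a deposited log2 signal, and a change is a difference of group mean log2 levels.

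Mitochondrial ribosomes sit inside the organelle and translate the few messages of mitochondrial DNA, all of which encode subunits of the respiratory chain and the ATP synthase. Their RNA is made in the mitochondrion, whereas all their proteins are encoded in the nucleus, made in the cytosol and imported. Many of these proteins descend from those of bacterial ribosomes, and others were added in the mitochondrial lineage. Tubule cells of the kidney are rich in mitochondria, and clear cell renal carcinomas often show reduced respiration.

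The promoters below are shown because they belong to members whose time courses differed. MRPL36, MRPL17, MRPL3 and MRPL20 all fell at 6 h in both lines. The 6 h falls of MRPL3 in 769-P and of MRPL20 in Caki-1 were close to the threshold of the limma test (adjusted p = 0.0362 and 0.0388). From 6 to 12 h the falls of MRPL3 and MRPL20 deepened by more than that of MRPL17, and that of MRPL36 did not deepen. The fall of MRPL52 differed between the lines, and MRPL45 rose. Whether the promoter letters relate to these courses was not tested. Each line holds the 200 bases before the first listed start of the gene, 5′ to 3′ on the strand of the gene, from RefSeq with the build GRCh38.p14. The capitals mark matches to 4 motifs searched on both strands: CCGGAAG, the core bound by ETS factors such as GABPA, AAGATGGCG, the core bound by YY1, GCGC and GCGC separated by any base and a T, the motif bound by the transcription factor NRF1, and CACGTG, the E-box bound by MYC and other factors. The motifs do not overlap one another in the stretches shown. MRPL36 is at chr5:1799838-1800037 on the minus strand, MRPL17 at chr11:6683341-6683540 on the minus strand and MRPL3 at chr3:131502972-131503171 on the minus strand. MRPL20 is at chr1:1407294-1407493 on the minus strand, MRPL52 at chr14:22829687-22829886 on the plus strand and MRPL45 at chr17:38296968-38297167 on the plus strand.
MRPL36: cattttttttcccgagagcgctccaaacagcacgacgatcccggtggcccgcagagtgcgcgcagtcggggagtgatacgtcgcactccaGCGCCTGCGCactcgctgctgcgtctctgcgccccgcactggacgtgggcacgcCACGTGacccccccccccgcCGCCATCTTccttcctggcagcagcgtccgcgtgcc
MRPL17: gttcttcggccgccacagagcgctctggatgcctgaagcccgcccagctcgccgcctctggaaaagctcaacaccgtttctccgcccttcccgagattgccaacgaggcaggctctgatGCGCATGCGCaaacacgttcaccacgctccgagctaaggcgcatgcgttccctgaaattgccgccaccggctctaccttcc
MRPL3: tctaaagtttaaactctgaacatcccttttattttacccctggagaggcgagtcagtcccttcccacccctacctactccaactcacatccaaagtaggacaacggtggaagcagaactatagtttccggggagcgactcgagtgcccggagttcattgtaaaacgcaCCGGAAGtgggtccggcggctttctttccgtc
MRPL20: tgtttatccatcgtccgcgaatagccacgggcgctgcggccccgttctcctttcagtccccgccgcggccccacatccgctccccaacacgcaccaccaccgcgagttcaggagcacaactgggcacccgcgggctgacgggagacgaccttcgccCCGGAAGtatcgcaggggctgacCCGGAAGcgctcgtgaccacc
MRPL52: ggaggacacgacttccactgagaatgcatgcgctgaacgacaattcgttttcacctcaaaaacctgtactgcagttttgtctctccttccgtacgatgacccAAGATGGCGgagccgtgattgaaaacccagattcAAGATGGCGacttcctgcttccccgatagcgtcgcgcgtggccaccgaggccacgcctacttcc
MRPL45: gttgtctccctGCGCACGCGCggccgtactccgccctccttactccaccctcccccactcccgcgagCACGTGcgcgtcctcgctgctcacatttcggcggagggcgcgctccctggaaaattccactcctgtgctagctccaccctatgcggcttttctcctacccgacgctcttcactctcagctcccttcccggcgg

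MRPL36 carries matches to the NRF1 motif, the E-box and the YY1 motif in that order towards the start, and MRPL17 carries the NRF1 motif. MRPL3 has 1 ETS match close to the start, MRPL20 has 2, MRPL52 has 2 YY1 matches, and MRPL45 has an NRF1 match and an E-box farther upstream. MRPL52 also has an ETS match that begins at base -5 and crosses the start, so it is not in capitals. In windows from 250 bases before to 50 after the start, which matched for 67 of the 74 subunit genes, the ETS motif was present in 28, or 41.8%, against 14.2% of 15843 protein-coding genes. The YY1 motif was present in 12 subunit genes, or 17.9%, against 2.74% of protein-coding genes. NRF1 matches were found in 11.9% of the subunit genes and 8.58% of protein-coding genes, and E-boxes in 8.96% and 8.88%. MRPL46 and MRPS11 start head to head, 320 bases apart on chromosome 15, so their windows share sequence. Among the 15 windows of genes that fell at 6 h in both lines the ETS motif was present in 33.3%, against 44.2% of the other 52. For NRF1 these shares were 20% and 9.62%, for YY1 20% and 17.3%, and for the E-box 6.67% and 9.62%. All promoters printed here hold a match, whereas the windows of MRPL12, MRPL34, MRPL39 and MRPS17, among others, held no match to any of these motifs. The printed promoters therefore do not stand for all members. A match is a description of the letters and not evidence of binding.

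Expression was measured on Affymetrix PrimeView arrays in the human renal cell carcinoma lines Caki-1, grown from a metastasis in the skin, and 769-P, grown from a tumour in the kidney. Either line was exposed to 1 µM dasatinib, which blocks ABL and the kinases of the SRC family, for 6, 12 or 24 h, or to the vehicle DMSO, with 3 arrays in each of the 8 groups. The labels give the DMSO arrays no time, so each line has 1 control group that serves all times, comparisons within a line share it, and hours of drug cannot be told apart from hours in culture. The arrays are called biological replicates without a statement of how the cultures were separated, so p-values measure only the spread between these samples. Array medians lay between 6.008 and 6.084, and arrays of a group correlated at 0.9929 or more across probe sets. The number of arrays sets the precision, with a median SE of a change of 0.1 in Caki-1 and 0.1045 in 769-P. Of 5 renal epithelial markers, 5 were above the filter on low signals in both lines, with PAX8 between 9.73 and 10.76, while PTPRC, the pan-leukocyte marker, lay at 3.25 to 3.97. Of 6 leukocyte and endothelial markers, 4 were above the filter in Caki-1 (CD14, CD3E, PECAM1 and VWF) and 3 in 769-P (CD3E, PECAM1 and VWF), at levels of 5.12 to 6.51 in Caki-1 and 5.14 to 5.93 in 769-P. Their part in the results was not tested. Array 1 of the 769-P 24 h group stood apart in RNA quality, with a difference of 4.068 between the 3′ and 5′ control probe sets of ACTB, against 3.1 to 3.22 on the other arrays of that group and 2.783 to 3.212 under DMSO. In whole cultures, fewer cells of a type and less RNA per cell cannot be told apart.

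Most transcripts of mitochondrial ribosomal proteins were lower after dasatinib, and in Caki-1 nearly all of them fell by 24 h. In Caki-1, 26 of the 74 subunit genes fell and 4 rose at 6 h, against 14% of the 12420 genes tested that fell and 12.3% that rose. At 12 h, 59 fell and 2 rose (all genes 24.4% lower and 24.1% higher). At 24 h, 68 fell and 2 rose (all genes 29.9% lower and 32.9% higher). As a share of the 74, the falls made up 35.1%, 79.7% and 91.9% at the 3 times. The median change of the subunit genes was -0.13 at 6 h, -0.39 at 12 h and -0.58 at 24 h, whereas the median over all genes tested was 0.01, 0.05 and 0.08. Calls are limma tests within the line with a Benjamini-Hochberg adjusted p under 0.05 over all genes tested, and each subunit gene passed the filter on low signals in both lines.

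In 769-P the fall was smaller and levelled off after 12 h. Of the 74 subunit genes, 19 fell and 1 rose at 6 h, against 14.5% and 16.4% of the 12350 genes tested. With the replicate number as a block, 2 rose at 6 h. At 12 h, 40 fell and 4 rose (all genes 22.6% lower and 24.9% higher), and at 24 h, 43 fell and 7 rose (all genes 24.6% lower and 31.1% higher). The falls made up 25.7%, 54.1% and 58.1% of the members. The median change was -0.06, -0.24 and -0.24, against 0.02, 0.02 and 0.04 over all genes. Array 1 of the 769-P DMSO group had the highest subunit levels of its group, and without it 13, 35 and 34 genes fell and 1, 6 and 10 rose at 6, 12 and 24 h. Without array 1 of the 769-P 24 h group, 44 fell and 6 rose at 24 h.

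The same pattern was present on single arrays. The median over the large subunit genes of the difference from the DMSO mean was -0.16, -0.09 and -0.15 on the Caki-1 arrays at 6 h, -0.31, -0.39 and -0.41 at 12 h and -0.53, -0.57 and -0.60 at 24 h. The 9 treated arrays all lay below the DMSO arrays of Caki-1, which spanned -0.03 to 0.03. In 769-P the large subunit medians were -0.03, -0.06 and -0.11 at 6 h, -0.18, -0.19 and -0.30 at 12 h and -0.19, -0.31 and -0.28 at 24 h, with DMSO arrays at 0.09, -0.02 and -0.06. The 6 h arrays of 769-P overlapped the DMSO arrays, and those at 12 and 24 h lay below them.

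**Figure D1:**
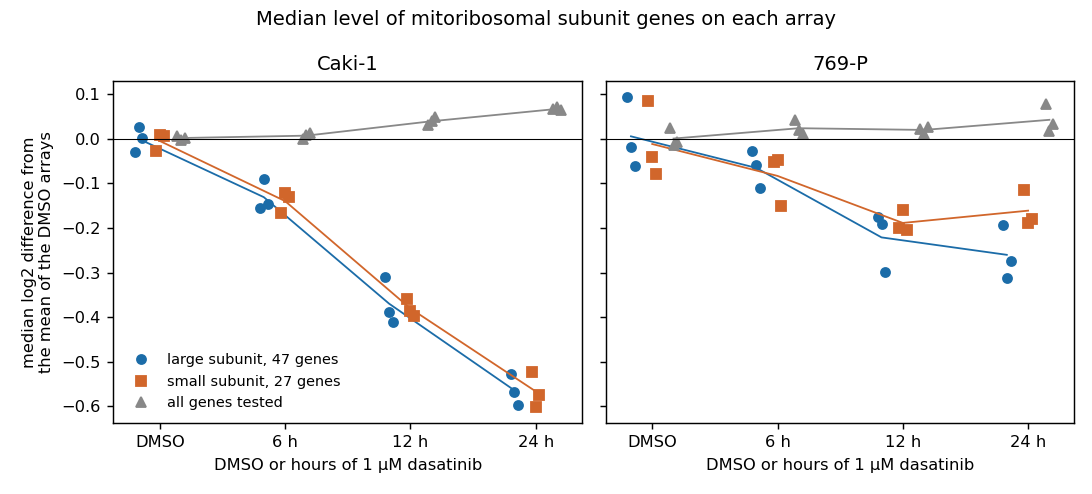
Median difference from the DMSO mean of the line (log2, vertical axis) over the large subunit genes, the small subunit genes and all genes tested, 1 point per array, by line and treatment. The Caki-1 subunit medians step down at each time to between -0.52 and -0.60 at 24 h, while those of 769-P at 24 h lie between -0.11 and -0.31.

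Large and small subunit genes moved by nearly the same amount in Caki-1. There, 14 of 47 large and 12 of 27 small subunit genes fell at 6 h, 37 and 22 at 12 h, and 43 and 25 at 24 h. The large minus small difference of the median changes was 0.02 at 6 h, 0.02 at 12 h and 0.00 at 24 h, and the 24 h medians were -0.58 in either subunit. In 769-P, 12 large and 7 small subunit genes fell at 6 h, 26 and 14 at 12 h, and 29 and 14 at 24 h. The median change at 24 h in 769-P was -0.26 in the large and -0.17 in the small subunit, and the large minus small differences were 0.00, -0.09 and -0.09 at the 3 times. With all probe sets of a gene averaged, these 769-P differences were 0.07, -0.01 and -0.02, so the gap depended on the probe set read. MRPS30 and MRPS18A carry S symbols but sit in the large subunit of the assembled ribosome, and by structure 44 of 49 large and 24 of 25 small subunit genes fell in Caki-1 at 24 h.

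The fall included proteins with and without bacterial relatives. The 46 subunit genes with a bacterial homologue had a median change of -0.62 in Caki-1 and -0.27 in 769-P at 24 h. The 28 genes specific to mitochondria had medians of -0.49 and -0.21. These are descriptions of 2 sets of unlike size, with no test between them.

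**Figure D2:**
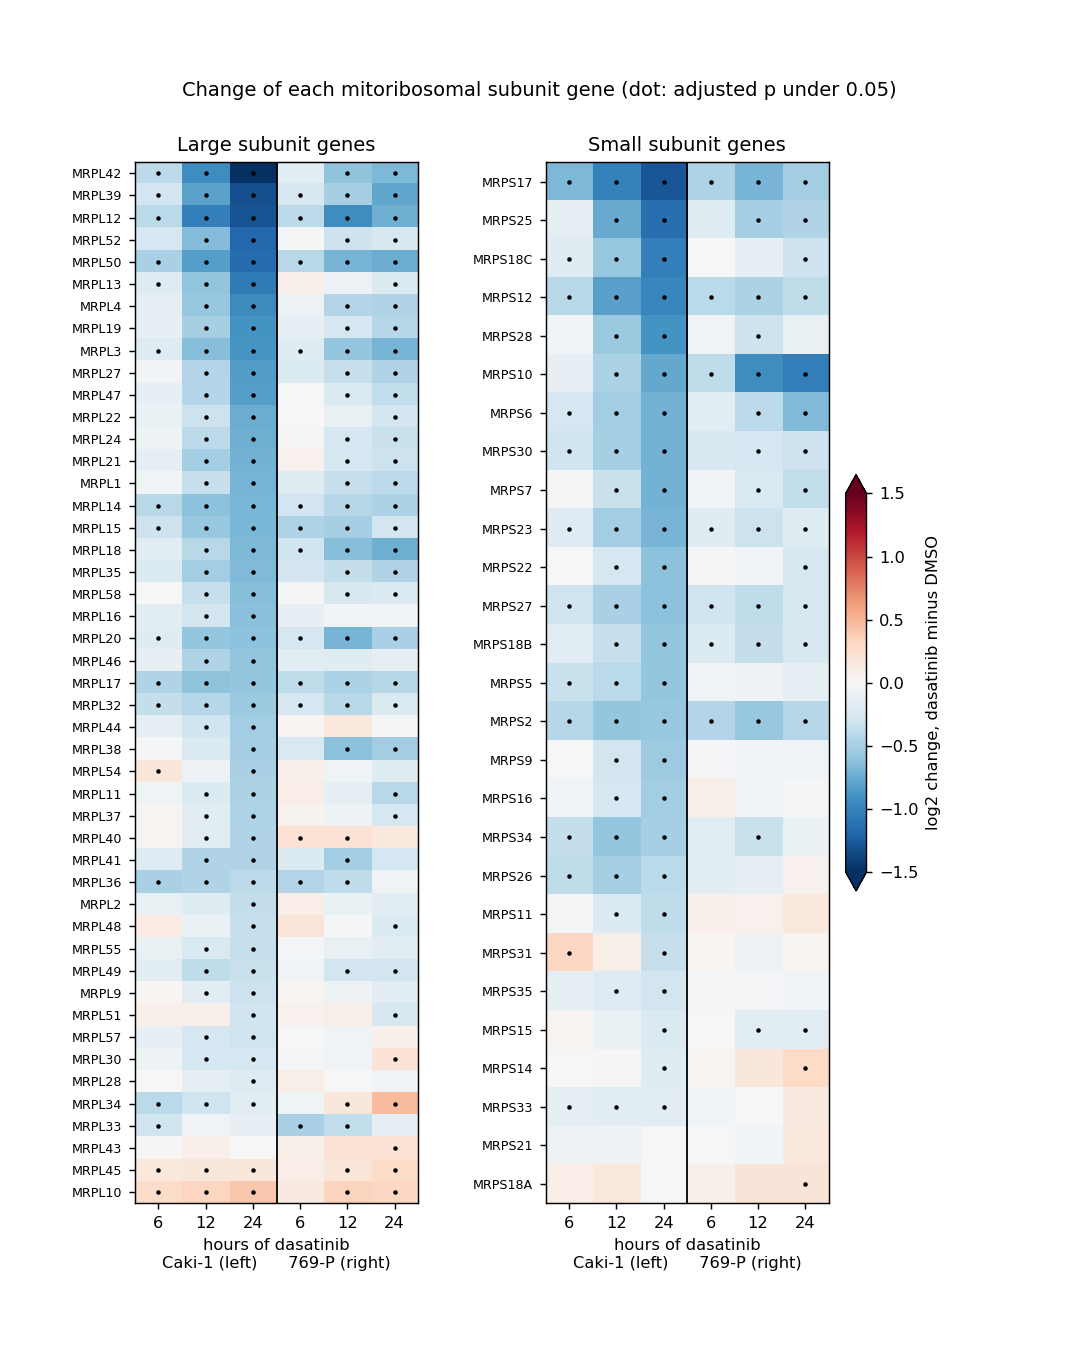
Change against DMSO (log2, colour) of each of the 74 subunit genes (down the page) in the 6 comparisons of dasatinib with DMSO (columns, Caki-1 and 769-P at 6, 12 and 24 h). Dots mark an adjusted p under 0.05, and the Caki-1 column at 24 h holds 68 falls and 2 rises.

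A group of 14 members fell in all 6 comparisons, namely MRPL3, MRPL12, MRPL14, MRPL15, MRPL17, MRPL20, MRPL32, MRPL39, MRPL50, MRPS2, MRPS12, MRPS17, MRPS23 and MRPS27. No share over all genes is given beside this count or the shared falls below, so they do not set the members apart from other genes. With the mean of their probe sets, MRPS12 at 6 h and MRPL20 at 12 h in 769-P missed the threshold. The 6 h call of MRPL3 in 769-P was lost in several fits given below. At 6 h the arrays of MRPL20 in Caki-1 and of MRPL39 in 769-P overlapped those under DMSO. Of the members that fell at 6 h, 16 did so in both lines, which is 61.5% of the Caki-1 and 84.2% of the 769-P falls. At 12 h, 37 were shared (62.7% and 92.5%), and at 24 h each of the 43 that fell in 769-P also fell in Caki-1 (63.2% and 100%). Across the 74 members the changes of the lines correlated with a Pearson r of 0.767 at 6 h, 0.784 at 12 h and 0.745 at 24 h, as a description over genes, which are not independent. Over 11908 genes tested in both lines the same r was 0.679, 0.725 and 0.757.

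The stalk of the large subunit recruits translation factors and is built from copies of MRPL12 attached through MRPL10, beside MRPL11, and its parts moved in opposite directions. MRPL12, which also binds the mitochondrial RNA polymerase, had log2 levels of 10.91, 10.71 and 10.52 on the Caki-1 arrays at 6 h, 10.12, 10.05 and 10.10 at 12 h and 9.98, 9.76 and 9.72 at 24 h, against 11.08, 11.16 and 11.10 under DMSO. The treated arrays at each time lay below the DMSO arrays. Its log2 change was -0.40 ± 0.09 at 6 h, -1.03 ± 0.09 at 12 h and -1.30 ± 0.09 at 24 h (adjusted p = 0.00377, 3.36e-07 and 1.02e-08), or 2.46-fold lower at 24 h. In 769-P, MRPL12 had levels of 9.57, 9.41 and 9.40 at 6 h, 8.82, 8.99 and 8.93 at 12 h and 9.19, 9.07 and 9.08 at 24 h, against 9.995, 9.86 and 9.69 under DMSO. The groups did not overlap, and the lowest levels were those at 12 h. The changes in 769-P were -0.39, -0.94 and -0.73 with SE 0.09 (adjusted p = 0.00323, 4.09e-07 and 3.22e-06).

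MRPL10, which anchors MRPL12 to the body of the subunit, was one of the few members that rose. On Caki-1 arrays its log2 levels were 9.84, 9.89 and 9.88 at 6 h, 9.95, 9.91 and 9.88 at 12 h and 10.02, 9.997 and 9.97 at 24 h, against 9.70, 9.58 and 9.51 under DMSO. The treated arrays lay above the DMSO arrays at each time. The log2 change was 0.27 ± 0.06 at 6 h, 0.32 ± 0.06 at 12 h and 0.40 ± 0.06 at 24 h (adjusted p = 0.0047, 0.000641 and 4.98e-05). In 769-P its levels were 9.54, 9.70 and 9.73 at 6 h, 9.71, 10.01 and 9.84 at 12 h and 9.83, 9.85 and 9.80 at 24 h, against 9.55, 9.44 and 9.57 under DMSO. The 6 h arrays overlapped the DMSO arrays (change 0.14 ± 0.08, adjusted p = 0.25), and at 12 and 24 h the level rose by 0.34 and 0.31 (adjusted p = 0.00356 and 0.00525). MRPL11, at the base of the stalk, had changes of -0.06 at 6 h, -0.21 at 12 h and -0.48 at 24 h in Caki-1 and 0.11, -0.13 and -0.42 in 769-P. Its falls at 12 and 24 h in Caki-1 and at 24 h in 769-P passed the test (adjusted p = 0.00432, 1.44e-06 and 1.95e-05).

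Among the proteins added in the mitochondrial lineage, MRPL42 had the deepest fall of the 74 members in Caki-1 at 24 h. Its log2 levels in Caki-1 were 10.02, 9.90 and 9.82 at 6 h, 9.54, 9.31 and 9.28 at 12 h and 8.87, 8.60 and 8.44 at 24 h, against 10.15, 10.36 and 10.42 under DMSO. The groups were apart at each time, and each later group lay below the earlier ones. The change was -0.40 ± 0.11 at 6 h, -0.93 ± 0.11 at 12 h and -1.67 ± 0.11 at 24 h (adjusted p = 0.0141, 5.7e-06 and 5.64e-09), or 3.19-fold lower at 24 h. In 769-P the levels of MRPL42 were 9.44, 9.53 and 9.56 at 6 h, 9.02, 9.08 and 9.12 at 12 h and 9.06, 9.001 and 8.94 at 24 h, against 9.68, 9.83 and 9.51 under DMSO. The 6 h arrays overlapped the DMSO arrays, and the falls of -0.60 ± 0.08 at 12 h and -0.67 ± 0.08 at 24 h passed the test (adjusted p = 1.96e-05 and 4.03e-06).

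MRPL39, another protein without a bacterial counterpart, fell in each comparison, with changes of -0.29, -0.80 and -1.32 in Caki-1 and -0.25, -0.50 and -0.78 in 769-P at 6, 12 and 24 h. At 24 h its levels were 9.51, 9.19 and 9.35 in Caki-1, against 10.63, 10.66 and 10.72 under DMSO (SE 0.09, adjusted p = 5.98e-09). MRPL50 had levels of 8.61, 8.59 and 8.54 in Caki-1 at 24 h, against 9.57, 9.79 and 9.86 under DMSO. Its 24 h change was -1.16 ± 0.09 in Caki-1 and -0.74 ± 0.08 in 769-P (adjusted p = 2.75e-08 and 6.82e-07), and it had already fallen at 6 h, with changes of -0.48 and -0.41 (adjusted p = 0.000898 and 0.000756). MRPL41, known also as a partner of p53 and BCL2 in cell death, had changes of -0.20, -0.46 and -0.45 in Caki-1 and -0.20, -0.51 and -0.26 in 769-P. Its falls at 12 and 24 h in Caki-1 and at 12 h in 769-P passed the test (adjusted p = 0.000182, 0.000124 and 0.00184).

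Core large subunit proteins with bacterial relatives followed several courses. MRPL3, which lies near the peptidyl transferase centre and is mutated in a mitochondrial cardiomyopathy, had levels of 11.66, 11.72 and 11.68 in Caki-1 at 24 h, against 12.50, 12.59 and 12.62 under DMSO. Its change was -0.88 ± 0.05 in Caki-1 and -0.69 ± 0.06 in 769-P at 24 h (adjusted p = 5.35e-10 and 1.19e-07), and the groups did not overlap in either line. Its small 6 h fall in 769-P (-0.18 ± 0.06, adjusted p = 0.0362) was lost without array 1 or 2 of DMSO or array 2 or 3 of the 6 h group (-0.18 to -0.14, adjusted p = 0.0876 to 0.137), and with no filter or no trend (adjusted p = 0.0512 and 0.0858). MRPL20 had changes of -0.18, -0.58 and -0.62 in Caki-1 and -0.25, -0.70 and -0.49 in 769-P, and MRPL18 of -0.16, -0.42 and -0.68 in Caki-1 and -0.29, -0.64 and -0.73 in 769-P. All of these passed the test except MRPL18 at 6 h in Caki-1. For MRPL20 in 769-P at 12 h, the mean of its probe sets gave -0.23 (adjusted p = 0.0647).

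MRPL17, near the exit of the protein tunnel, and MRPL14, at the interface with the small subunit, reached most of their fall by 6 h. MRPL17 had levels of 11.02, 11.16 and 11.14 in Caki-1 at 6 h, 10.91, 10.97 and 10.997 at 12 h and 11.03, 10.95 and 10.96 at 24 h, against 11.47, 11.63 and 11.59 under DMSO. The treated groups lay close together and all below the DMSO arrays, with changes of -0.45, -0.60 and -0.58 (SE 0.06). In 769-P the changes of MRPL17 were -0.38, -0.47 and -0.42 (SE 0.08), and its 24 h level differed from that at 6 h by -0.04 (adjusted p = 0.729). MRPL14 had changes of -0.42, -0.61 and -0.68 in Caki-1 and of -0.29, -0.42 and -0.47 in 769-P, all past the test.

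The small proteins MRPL33, MRPL34 and MRPL36 of the large subunit fell at 6 h in at least 1 line and were less reduced at 24 h than at 6 h. In Caki-1 this difference passed the test for MRPL34 only. MRPL36 had levels of 12.65, 12.66 and 12.73 in Caki-1 at 6 h, 12.66, 12.81 and 12.67 at 12 h and 12.79, 12.76 and 12.76 at 24 h, against 13.18, 13.14 and 13.17 under DMSO. In 769-P the levels of MRPL36 were 12.18, 12.22 and 12.15 at 6 h, 12.29, 12.15 and 12.30 at 12 h and 12.64, 12.49 and 12.59 at 24 h, against 12.74, 12.58 and 12.56 under DMSO. The Caki-1 arrays stayed below DMSO throughout, whereas in 769-P those at 24 h overlapped the DMSO arrays. The change in Caki-1 was -0.49, -0.45 and -0.40 (SE 0.04), and in 769-P it was -0.44, -0.38 and -0.05 (SE 0.06), with an adjusted p of 0.506 for the last. In 769-P the 24 h level was higher than the 6 h level by 0.39 ± 0.06 (adjusted p = 8.14e-05).

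MRPL33 had changes of -0.30, -0.05 and -0.13 in Caki-1 and -0.48, -0.37 and -0.15 in 769-P, with falls at 6 h in Caki-1 and at 6 and 12 h in 769-P (adjusted p = 0.00578, 0.00222 and 0.00863). Its 769-P level was higher at 24 h than at 6 h by 0.34 ± 0.10 (adjusted p = 0.0157), but without array 1 of the 6 h group this was 0.26 with an adjusted p of 0.0815. MRPL34 fell in Caki-1, with changes of -0.40 at 6 h, -0.30 at 12 h and -0.16 at 24 h (SE 0.05, adjusted p = 3.61e-05, 0.000183 and 0.0127). In 769-P its levels were 11.39, 11.31 and 11.28 at 6 h, 11.61, 11.52 and 11.56 at 12 h and 11.99, 11.79 and 11.82 at 24 h, against 11.45, 11.35 and 11.36 under DMSO. There the 24 h arrays lay above all others, and the change was 0.48 ± 0.06 at 24 h (adjusted p = 7.48e-06). The 12 h rise of 0.17 ± 0.06 (adjusted p = 0.0309) was lost without array 2 or 3 of DMSO or array 1 or 3 of the 12 h group (0.15 to 0.18, adjusted p = 0.0655 to 0.102), and after median centring or with no trend (adjusted p = 0.0513 and 0.0693).

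In the small subunit, MRPS17, a primary binder of the small ribosomal RNA, had the deepest 6 h fall of all members in Caki-1. Its levels in Caki-1 were 9.71, 9.84 and 9.83 at 6 h, 9.44, 9.51 and 9.41 at 12 h and 9.21, 9.14 and 9.23 at 24 h, against 10.41, 10.51 and 10.50 under DMSO. The groups were fully apart, and the changes were -0.68, -1.02 and -1.28 with SE 0.06 (adjusted p = 2.81e-06, 1.83e-08 and 4.79e-10). In 769-P its levels were 10.47, 10.33 and 10.21 at 6 h, 10.16, 10.15 and 9.98 at 12 h and 10.35, 10.17 and 10.32 at 24 h, against 10.92, 10.75 and 10.72 under DMSO. All treated arrays lay below the DMSO arrays, with changes of -0.46, -0.70 and -0.52 (SE 0.09, adjusted p = 0.000605, 5.54e-06 and 7.39e-05).

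MRPS12, which helps form the decoding centre and corresponds to the bacterial protein altered in streptomycin resistance, fell, with changes of -0.41, -0.82 and -0.98 in Caki-1 and of -0.41, -0.48 and -0.39 in 769-P. Its 769-P value at 6 h was -0.26 with the mean of its probe sets, which missed the threshold (adjusted p = 0.0877). MRPS2 fell, with changes of -0.43, -0.58 and -0.57 in Caki-1 and of -0.44, -0.57 and -0.42 in 769-P, so that its changes at 24 h and at 6 h were close. MRPS6 fell, with changes of -0.25, -0.53 and -0.71 in Caki-1, and in 769-P -0.39 at 12 h and -0.66 at 24 h, with a 6 h value of -0.17 that missed the threshold (adjusted p = 0.069). MRPS25, in contrast, had little change at 6 h (-0.14 in Caki-1 and -0.18 in 769-P, adjusted p = 0.138 and 0.0968) and fell, with changes of -0.76 and -1.14 in Caki-1 and of -0.50 and -0.45 in 769-P at 12 and 24 h.

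MRPS10 was the 1 member with a deeper fall in 769-P that passed the test of the difference. Its levels in 769-P were 10.63, 10.79 and 10.66 at 6 h, 10.20, 10.13 and 10.12 at 12 h and 9.87, 10.07 and 10.16 at 24 h, against 11.03, 11.06 and 11.13 under DMSO. The treated arrays all lay below the DMSO arrays, and the changes were -0.38, -0.93 and -1.04 with SE 0.08 (adjusted p = 0.00115, 9.53e-08 and 1.21e-08). In Caki-1 the changes of MRPS10 were -0.12 at 6 h, which missed the threshold (adjusted p = 0.277), -0.47 at 12 h and -0.76 at 24 h.

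The 3 MRPS18 genes are paralogues whose products occupy different places in the ribosome, and their values differed. MRPS18C, in the small subunit, fell in Caki-1, with changes of -0.18, -0.57 and -1.03 (SE 0.06), with levels of 10.33, 10.27 and 10.29 at 24 h, against 11.29, 11.37 and 11.32 under DMSO. Its 6 h fall was lost without array 2 or 3 of DMSO or array 1 or 3 of the 6 h group (-0.19 to -0.15, adjusted p = 0.0791 to 0.132), and with quantile normalisation, no trend or all 24 arrays in 1 fit (adjusted p = 0.0548 to 0.117). In 769-P it had changes of -0.01, -0.12 and -0.32, and the 24 h fall (adjusted p = 0.0111) was lost without array 1 of DMSO or array 2 of the 24 h group (-0.26 to -0.20, adjusted p = 0.0534 to 0.0676). MRPS18B, in the small subunit, had changes of -0.16, -0.35 and -0.58 in Caki-1 and of -0.20, -0.36 and -0.23 in 769-P, where the 6 h fall (adjusted p = 0.0386) was lost without any 1 array of DMSO or array 1 or 3 of the 6 h group (-0.21 to -0.16, adjusted p = 0.0546 to 0.157), and with quantile normalisation, no filter or no trend (adjusted p = 0.052 to 0.0591). MRPS18A, in the large subunit, had changes of 0.10, 0.16 and 0.01 in Caki-1 and 0.08, 0.19 and 0.19 in 769-P. The 24 h value of MRPS18A in 769-P passed the test (adjusted p = 0.0454) and was lost without array 2 or 3 of DMSO or any 1 array of the 24 h group (0.13 to 0.20, adjusted p = 0.0761 to 0.199). It was 0.089 with the mean of its probe sets (adjusted p = 0.393), and the call was also lost after median centring and with no filter (adjusted p = 0.0532 and 0.0641). The Caki-1 24 h value turned to -0.05 after median centring. MRPS30, a large subunit protein despite its symbol and known also as a pro-apoptotic protein, fell in Caki-1, with changes of -0.30, -0.50 and -0.71. In 769-P it had -0.24 at 6 h (adjusted p = 0.0659) and falls of -0.25 and -0.31 at 12 and 24 h. The 12 h fall was lost without array 1 or 2 of DMSO or any 1 array at 12 h (-0.26 to -0.18, adjusted p = 0.069 to 0.16), and the 24 h fall without array 1 of DMSO or array 2 or 3 at 24 h (-0.26 to -0.24, adjusted p = 0.052 to 0.0576).

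Members that did not fall were few. MRPL10, MRPL43, MRPL45, MRPS18A and MRPS21 fell in none of the 6 comparisons, and 10 members rose in at least 1. These counts too have no share over all genes beside them. MRPL45, which tethers the ribosome to the inner membrane at the exit of the nascent chain, had levels of 10.48, 10.59 and 10.54 in Caki-1 and 10.59, 10.55 and 10.62 in 769-P at 24 h, against 10.42, 10.36 and 10.33 in Caki-1 and 10.38, 10.28 and 10.29 in 769-P under DMSO. The groups did not overlap in either line, and the 24 h changes were 0.17 ± 0.05 and 0.27 ± 0.07 (adjusted p = 0.0144 and 0.0019). The smaller rises of MRPL45 depended on the setting. After median centring its Caki-1 values at 6, 12 and 24 h were 0.13, 0.13 and 0.11 (adjusted p = 0.0903, 0.0558 and 0.0842) and its 769-P value at 12 h was 0.16 (adjusted p = 0.059). With no trend the Caki-1 rise at 6 h and the 769-P rise at 12 h missed the threshold (adjusted p = 0.0639 and 0.0502), and with no filter that in Caki-1 at 6 h did (adjusted p = 0.0602). In Caki-1 its rise of 0.16 at 6 h was lost without array 2 or 3 of DMSO or any 1 array at 6 h (adjusted p = 0.0535 to 0.133). The Caki-1 rise of 0.17 at 12 h was lost without array 2 or 3 of either group (adjusted p = 0.0514 to 0.0718), and that at 24 h without array 3 of DMSO or array 2 at 24 h (adjusted p = 0.0539 to 0.0587). The 769-P rise of 0.18 at 12 h was lost without array 2 or 3 of either group (adjusted p = 0.0613 to 0.125). MRPL10 and MRPL45 were the members called higher in both lines, at 12 and at 24 h, with these losses for MRPL45.

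Each other rise passed the test in 1 line and not in the other. In 769-P at 24 h, MRPS14 rose by 0.30 ± 0.08 (adjusted p = 0.00353), MRPL30 by 0.21 ± 0.06 (adjusted p = 0.0104) and MRPL43 by 0.22 ± 0.09 (adjusted p = 0.0441). The call of MRPL43 was lost without array 2 or 3 of DMSO or of the 24 h group (0.16 to 0.22, adjusted p = 0.0888 to 0.18). It was also lost after median centring, with no filter and with no trend (adjusted p = 0.0506 to 0.0675). MRPS14 and MRPL30 fell in Caki-1 at 24 h, with changes of -0.19 and -0.26 (adjusted p = 0.031 and 0.00208). The difference between the lines at 24 h passed the test for MRPS14 (-0.49, adjusted p = 0.000937) and MRPL30 (-0.47, adjusted p = 0.000118) and not for MRPL43 (-0.23, adjusted p = 0.108). The MRPL30 value at 24 h against 6 h in 769-P changed sign with the mean of its probe sets. No such mean is given for its rise against DMSO or its difference between the lines, so these may depend on the probe set read. MRPL40 had 0.22 ± 0.08 at 6 and at 12 h in 769-P (adjusted p = 0.0459 and 0.0326), whereas in Caki-1 it fell, with changes of -0.17 at 12 h and -0.46 at 24 h. The 6 h call was lost without array 2 or 3 of DMSO or any 1 array at 6 h (0.17 to 0.25, adjusted p = 0.0666 to 0.199), and after median centring, with no filter and with no trend (adjusted p = 0.0599 to 0.0787). Values of MRPL40 at 12 h under the alternatives are not given here. With no trend only 1 of the 4 rises in 769-P at 12 h was left. In Caki-1 at 6 h, MRPS31 had 0.31 ± 0.10 (adjusted p = 0.0362) and MRPL54 had 0.19 ± 0.07 (adjusted p = 0.0475). The call of MRPS31 was lost without array 2 or 3 of either group (0.27 to 0.32, adjusted p = 0.0834 to 0.135), and that of MRPL54 without any 1 array of DMSO or array 2 or 3 at 6 h (0.17 to 0.20, adjusted p = 0.0763 to 0.154). MRPS31 was also not called after median centring (adjusted p = 0.0519) or with the mean of its probe sets, which gave 0.19 (adjusted p = 0.051). MRPL54 was not called after median centring or quantile normalisation, with no filter, with no trend or with all 24 arrays in 1 fit (0.16 to 0.19, adjusted p = 0.0531 to 0.0951). The difference between the lines at 6 h did not pass the test for MRPL40 (-0.18), MRPS31 (0.28) or MRPL54 (0.11), with adjusted p = 0.388, 0.377 and 0.707. MRPS31 and MRPL54 fell at 24 h, with changes of -0.34 and -0.49 (adjusted p = 0.00998 and 1e-05). MRPS31 has pseudogene copies elsewhere in the genome, so its probe set may read more than 1 locus. Whether the probe sets of other members read more than 1 locus was not tested. MRPL20-AS1 had changes of -0.09, -0.09 and 0.12 in Caki-1 and 0.08, 0.05 and 0.08 in 769-P, none past the test (adjusted p = 0.251 to 0.737).

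**Figure D3:**
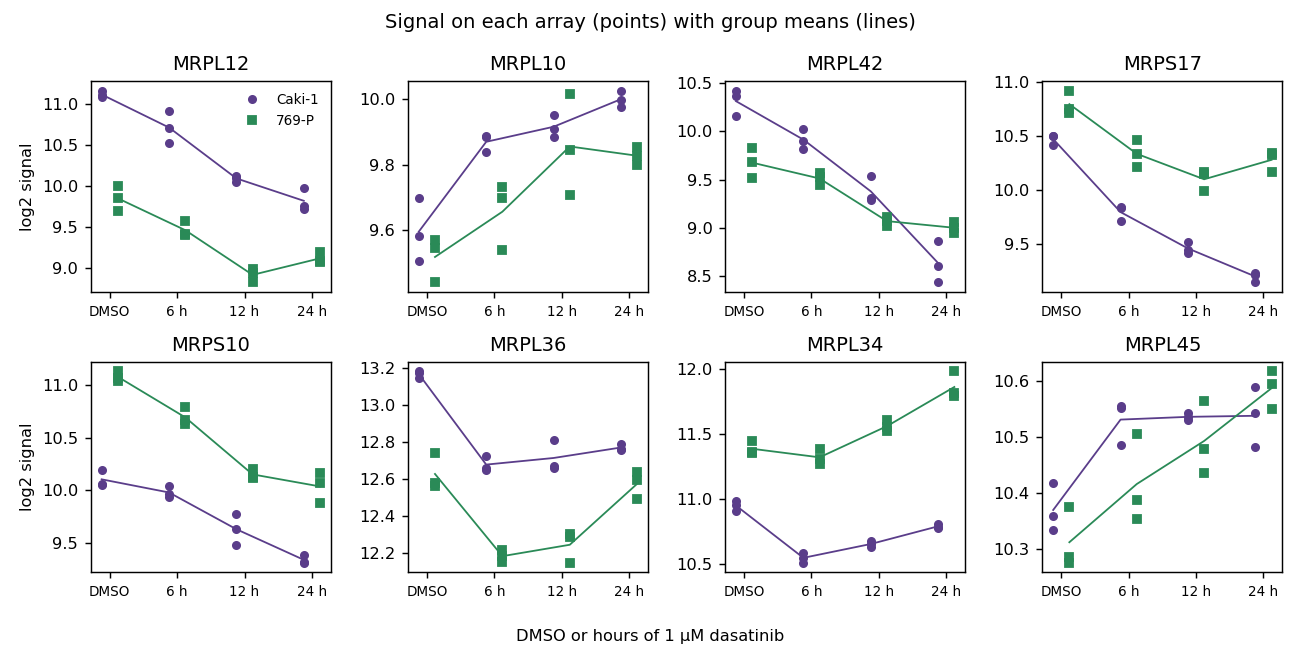
Log2 level on each array (points) for MRPL12, MRPL10, MRPL42, MRPS17, MRPS10, MRPL36, MRPL34 and MRPL45 under DMSO and after 6, 12 and 24 h of dasatinib in each line. MRPL42 in Caki-1 lies between 8.44 and 8.87 at 24 h, against 10.15 to 10.42 under DMSO, whereas MRPL10 lies between 9.97 and 10.02, against 9.51 to 9.70.

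The direct comparison of 24 h with 6 h, which uses no DMSO array, showed a continued fall in Caki-1 and a mixed course in 769-P. In Caki-1, 38 of 47 large and 21 of 27 small subunit genes were lower at 24 h than at 6 h, and 1 was higher (all genes 25.6% lower and 28.1% higher). The deepest were MRPL42 at -1.28, MRPL39 at -1.03, MRPS25 at -0.99, MRPL52 at -0.93 and MRPL12 at -0.90, and the 1 that was higher was MRPL34 at 0.24 (adjusted p = 0.000886). In 769-P, 28 large and 7 small subunit genes were lower and 6 and 2 were higher (all genes 18.5% lower and 25.8% higher). MRPS10 at -0.66, MRPL39 at -0.54, MRPL11 at -0.52, MRPL3 at -0.51 and MRPL42 at -0.51 were the lowest there, while MRPL34 was higher by 0.54, MRPL36 by 0.39, MRPL33 by 0.34, MRPS14 by 0.26 and MRPL30 by 0.24. The value of MRPS14 without array 3 of the 769-P 6 h group was 0.22 (adjusted p = 0.0587), and that of MRPL30 was -0.12 with the mean of its probe sets. Of 43 members called in 769-P, 27 were called without array 1 of the 6 h group and 28 without array 2 of the 24 h group.

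The lines differed in the size of the fall chiefly at 24 h. The interaction test, in which the change in 769-P is subtracted from that in Caki-1, found 1 member lower and 0 higher at 6 h, against 4.42% and 3.68% of the 12862 genes tested. At 12 h, 8 members were lower and 1 higher (all genes 10.3% and 8.68%), and at 24 h, 46 were lower and 1 higher (all genes 22.1% and 13.8%). The sign was towards a deeper fall in Caki-1 for 49, 65 and 69 of the 74 members at 6, 12 and 24 h. No count of signs over all genes is given beside these, and at 24 h the calls among all genes also leaned lower in Caki-1. The 24 h count was 56 without array 1 of the 769-P DMSO group and 43 without array 1 of the 769-P 24 h group. At 12 h, the 9 calls became 18 without array 1 of the Caki-1 12 h group, 20 without array 1 of the 769-P DMSO group and 18 with the replicate block.

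At 24 h the difference was -1.001 ± 0.141 for MRPL42 and -0.94 ± 0.13 for MRPL52 (adjusted p = 6.57e-06 and 3.74e-06). MRPL52 had levels of 9.66, 9.44 and 9.29 in Caki-1 at 24 h, against 10.72, 10.64 and 10.58 under DMSO, a change of -1.18 ± 0.10. In 769-P its 24 h levels were 9.83, 9.62 and 9.69, against 10.02, 9.86 and 9.97 under DMSO, a change of -0.24 ± 0.08 in which the groups lay next to each other without overlap. MRPL13, which binds the large ribosomal RNA, differed by -0.84 ± 0.09, MRPS28 by -0.79 ± 0.13 and MRPS17 by -0.76 ± 0.11 (adjusted p = 1.49e-07, 4.47e-05 and 5.68e-06). MRPL13 fell at 24 h, with changes of -1.06 in Caki-1 and -0.21 in 769-P. MRPS28 fell in Caki-1, with a change of -0.90, and in 769-P had -0.11 (adjusted p = 0.182).

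At 12 h the same contrast was past the test for MRPL13 (-0.50), MRPL34 (-0.47), MRPL44 (-0.46), MRPS18C (-0.46) and MRPL40 (-0.39). MRPL44, an RNase III-like protein mutated in a cardiomyopathy, fell by 0.30 in Caki-1 at 12 h, and in 769-P had 0.16 (adjusted p = 0.145). MRPL34 differed at each time, by -0.34, -0.47 and -0.63 (adjusted p = 0.00495, 6.75e-05 and 6.65e-07). MRPS10 differed in the other direction, by 0.45 ± 0.11 at 12 h (adjusted p = 0.00386) and by 0.28 ± 0.11 at 24 h (adjusted p = 0.0488). The 24 h difference of MRPS10 was lost in 9 of the 12 fits without 1 array, which gave 0.20 to 0.29 with adjusted p from 0.056 to 0.154. The lowest of these values was that without array 1 of the 769-P 24 h group. The difference was also lost after median centring (0.24, adjusted p = 0.102), with no filter and with no trend (adjusted p = 0.0626 and 0.0607). It was kept without array 3 of Caki-1 DMSO, array 1 of 769-P DMSO or array 3 of 769-P at 24 h.

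**Figure D4:**
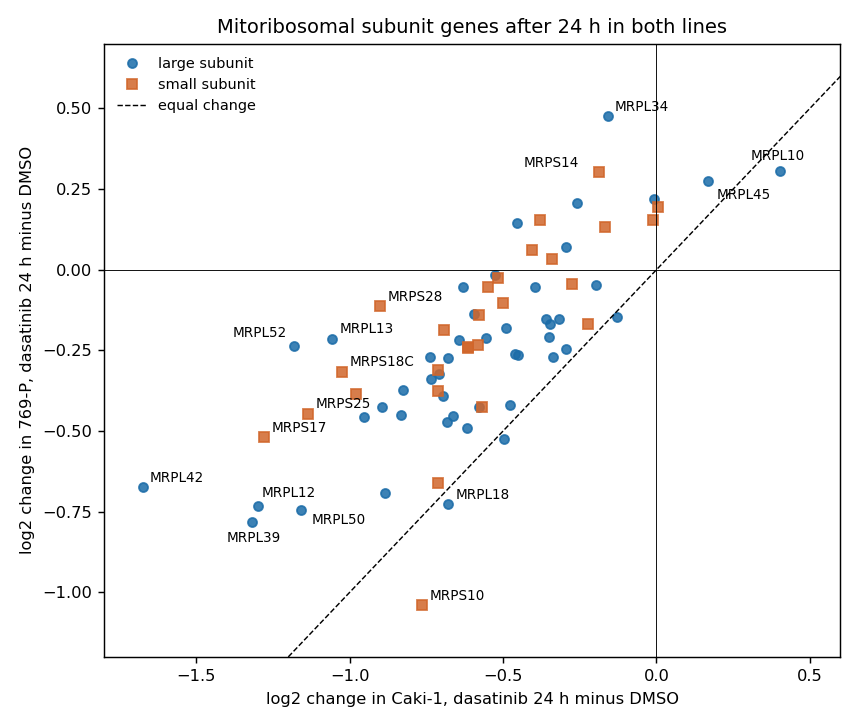
Change at 24 h against DMSO (log2) in Caki-1 (horizontal axis) and 769-P (vertical axis) for the 74 subunit genes, 1 point per gene, with large and small subunit marked. Points for 69 genes lie on the side of a lower value in Caki-1, with MRPL42 at -1.67 and -0.67 and MRPS10 at -0.76 and -1.04.

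Before treatment the lines already differed in many members, in either direction. Under DMSO, 26 of the 74 subunit genes were higher and 20 lower in Caki-1 than in 769-P (all genes 28.8% higher and 29.9% lower), close to the share among all genes. MRPL12 had levels of 11.08, 11.16 and 11.10 in Caki-1 and 9.995, 9.86 and 9.69 in 769-P, a difference of 1.27 ± 0.09 or 2.41-fold. MRPS7, an early binder of the small ribosomal RNA, differed by 1.17 ± 0.07, MRPS21 by 1.13, MRPS23 by 0.83 and MRPS33 by 0.76. MRPS10 was lower in Caki-1, with a difference of -0.97 ± 0.08, as were MRPS26 at -0.81, MRPS31 at -0.74, MRPS9 at -0.61 and MRPL22 at -0.61. MRPS7 fell in both lines at 24 h, with changes of -0.71 in Caki-1 and -0.37 in 769-P, and MRPS21 had -0.01 and 0.15, neither past the test.

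Other parts of the mitochondrial protein synthesis machinery are given beside the shares of all genes tested that fell at 6, 12 and 24 h, which were 14%, 24.4% and 29.9% in Caki-1 and 14.5%, 22.6% and 24.6% in 769-P. At 24 h, 32.9% of all genes rose in Caki-1 and 31.1% did so in 769-P. DAP3, PTCD3, CHCHD1 and GADD45GIP1, mitoribosomal proteins with other symbols, all fell in Caki-1 at 24 h, and 3 fell in 769-P. GADD45GIP1 fell, with changes of -0.79 ± 0.08 in Caki-1 and -0.53 ± 0.07 in 769-P. Of 21 assembly factors, 10, 15 and 16 fell in Caki-1 and 7, 10 and 8 in 769-P at 6, 12 and 24 h, with 2, 2 and 2 rises in Caki-1 and 1, 3 and 3 in 769-P. The ribosomal RNA methyltransferase MRM1 fell, with changes of -1.09 in Caki-1 and -1.02 in 769-P at 6 h, and MTERF3 fell too, with -0.68 and -0.53. The endoribonuclease YBEY and the GTPase NOA1 rose in 769-P at 24 h, by 0.72 and 0.62.

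Of 11 mitochondrial translation factors, 8 fell and 1 rose in Caki-1 at 24 h, and 3 fell and 2 rose in 769-P, where the share that fell was near that of all genes. The elongation factor GFM1 fell by 0.85 ± 0.13 in Caki-1 at 24 h. The initiation factor MTIF3 rose in both lines at each time, by 0.31, 0.48 and 0.51 in Caki-1 and 0.28, 0.66 and 0.97 in 769-P. Of 11 genes of mitochondrial DNA maintenance and transcription, 7, 9 and 11 fell in Caki-1 and 3, 6 and 7 in 769-P, and none rose. TFAM, which packages mitochondrial DNA, fell, with changes of -1.56 ± 0.10 in Caki-1 and -0.82 ± 0.10 in 769-P at 24 h, and the helicase TWNK already fell at 6 h, with changes of -1.31 and -1.27. Of 21 genes of the TOMM and TIMM import channels, 18 fell in Caki-1 and 14 in 769-P at 24 h, with 0 and 2 rises. TIMM50, the receptor of the inner membrane channel, fell, with changes of -1.46 ± 0.11 in Caki-1 and -0.98 ± 0.09 in 769-P.

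Nuclear genes of the respiratory chain and of the cytosolic ribosome had another balance of falls and rises. Of 74 nuclear genes of oxidative phosphorylation, 33 fell and 18 rose in Caki-1 at 24 h, with a median of -0.06, and 5 fell and 40 rose in 769-P, with a median of 0.20. NDUFS6 of complex I fell by 0.87 in Caki-1, NDUFB2 of the same complex rose by 0.81 in 769-P, and the ATP synthase inhibitor ATP5IF1 rose by 0.68 in Caki-1 and 0.77 in 769-P at 24 h. Of 67 cytosolic ribosomal protein genes in Caki-1, 14 fell and 6 rose at 24 h, and of 66 in 769-P, 10 fell and 4 rose. Their median changes in Caki-1 were -0.01, -0.01 and -0.02 at 6, 12 and 24 h. RPL39L fell, with changes of -1.47 in Caki-1 and -2.02 in 769-P, and RPL35A fell too, with -1.35 and -1.31. No probe set reports the transcripts that mitochondria encode themselves.

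Values of 8 listed regulators of mitochondrial biogenesis follow. PPRC1, a serum-induced coactivator of nuclear genes for mitochondrial proteins, fell, with changes of -1.38, -1.46 and -1.31 in Caki-1 and of -1.87, -1.70 and -1.08 in 769-P. MYC, which activates genes of ribosome and mitochondrial biogenesis, fell, with changes of -1.13, -1.12 and -0.85 in Caki-1 and of -3.51, -2.80 and -0.91 in 769-P. PPARGC1A, the coactivator PGC-1α, rose by 0.38, 0.88 and 1.42 in 769-P. In Caki-1 its mean levels were 6.40, 7.18 and 8.23 after dasatinib and 5.02 under DMSO, which is under the filter, so it was tested there because of its treated arrays and no size of change is given. The transcription factor NRF1 fell in Caki-1, with changes of -0.34, -0.37 and -0.70, and in 769-P had -0.09, -0.22 and -0.24 (adjusted p = 0.0784 to 0.588). GABPA rose in Caki-1 at 6 h by 0.41 (adjusted p = 0.0121), and its other changes, of -0.10 to 0.17, missed the threshold. YY1 had changes of -0.16 to 0.00, and only that in Caki-1 at 24 h passed the test (adjusted p = 0.0367). ESRRA fell in Caki-1 at 6 and 12 h, with -0.35 and -0.26, and in 769-P at 6 h, with -0.36, and not otherwise. PPARGC1B fell only in 769-P at 24 h, with -0.34 (adjusted p = 0.0473). Of the subunit genes, 35.1% in Caki-1 and 25.7% in 769-P fell at 6 h, against 14% and 14.5% of all genes tested. Whether these regulators act on the subunit genes was not tested.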

How the data were processed

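The 24 arrays were grouped from the labels. The deposited log2 signals, 1 per probe set and array, were made by the authors with MAS5, per the submitters' processing notes, which give no version or settings. Values ran from 2.8 to 15.19, and the scaling between arrays is not given in the sources used here. Of 49395 probe sets, 44994 name 1 gene, 1832 several and 2569 have no entry in the platform annotation. A gene's level is that of the brightest of its probe sets that name 1 gene. Probe sets differ in affinity, so levels are not compared between genes.

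Genes above the 40th percentile of probe set means in a line (5.379 in Caki-1, 5.362 in 769-P) were tested with limma 3.58.1 under R 4.3.3 (data.table, version 1.17.8), with an intensity trend and group means, on the 12 arrays of a line (8 residual degrees of freedom) or on all 24 (16) for differences between lines. P-values were adjusted over all genes by Benjamini-Hochberg, with calls under 0.05. The tests were run on simulated data first.

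Members named with values were the 5 largest falls and rises among calls of each comparison, free of overlap for dasatinib against DMSO, and genes set by role. Of other lists, up to 4 calls per comparison were named. MRPL40 at 12 h in 769-P, MRPL20-AS1, MRPL43 and YY1 were added after their values were seen. Members and lists were chosen with earlier results of these data known. Gene places and promoters are from RefSeq, GRCh38.p14.

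Deviations of equally numbered arrays correlated above 0.1 for each pair in the 769-P comparisons with DMSO at 6 h (range 0.111 to 0.362) and 24 h (range 0.122 to 0.171) and in 24 h versus 6 h (range 0.102 to 0.191). The main tests used group means without pairing. Replicate numbers entered only as a block, in 1 of the alternatives. The alternatives were median centring, quantile normalisation, other filters, no trend, the mean of all probe sets, all 24 arrays in 1 fit, the replicate block and leaving out each array.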

Additional observations from a re-analysis of the deposited data

Results flagged for a closer look

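The interaction test over all 24 arrays called a difference between the lines, the change in Caki-1 less that in 769-P, for these members. At 6 h it was -0.34 for MRPL34, which fell in Caki-1 and had a change of -0.07 in 769-P. At 12 h it was -0.50 for MRPL13, -0.47 for MRPL34, -0.46 for MRPL44, -0.46 for MRPS18C and -0.39 for MRPL40. MRPL34 and MRPL40 were called higher in 769-P at 12 h and fell in Caki-1. The 12 h rise of MRPL34 was lost after median centring and with no trend (adjusted p = 0.0513 and 0.0693). With no trend only 1 of the 4 rises in 769-P at 12 h was left. MRPS10 differed the other way at 12 h, with 0.45.

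At 24 h the difference was -1.001 for MRPL42, -0.94 for MRPL52, -0.84 for MRPL13, -0.79 for MRPS28 and -0.76 for MRPS17, and 0.28 for MRPS10. Array 1 of the 769-P 24 h group, with its higher ACTB difference, takes part in each of these 24 h values. Without it the values were -0.97 for MRPL42, -0.89 for MRPL52, -0.79 for MRPL13, -0.73 for MRPS28, -0.73 for MRPS17 and 0.20 for MRPS10, the last no longer past the test (adjusted p = 0.154), and the count of calls was 43.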

How the results depend on the processing

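Counts of falls stayed within 1.5 times of the reported ones under each alternative other than leaving out an array. Counts of rises did not. In Caki-1 the 4 rises at 6 h became 1 after median centring, 2 with no filter and 2 with no trend, and the 2 rises at 12 h and at 24 h each became 1 after median centring. In 769-P the 1 rise at 6 h became 0 after median centring, with no filter and with no trend, and 2 after quantile normalisation or with the replicate block. The 4 rises at 12 h became 2, 7 and 1 after median centring, quantile normalisation and no trend, and 7 with the replicate block. Of differences between lines, the 1 call at 6 h became 2 after median centring or quantile normalisation and 3 with the mean of probe sets or the replicate block, and the 9 at 12 h became 16 after median centring and 18 with the replicate block.

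Leaving out 1 array gave 19 to 24, 51 to 60 and 66 to 68 falls in Caki-1 at 6, 12 and 24 h and 13 to 22, 34 to 41 and 34 to 47 in 769-P. Rises were 1 to 3, 1 to 2 and 1 to 2 in Caki-1 and 0 to 1, 1 to 6 and 5 to 10 in 769-P. Calls were 54 to 61 in Caki-1 and 27 to 38 in 769-P for 24 h against 6 h, 44 to 49 between lines under DMSO, and 1 to 3, 8 to 20 and 42 to 56 for differences at 6, 12 and 24 h.

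Of the named values that changed sign, 1 had been called: MRPL30 at 24 h against 6 h in 769-P, at 0.24 (adjusted p = 0.00608), was -0.12 with the mean of probe sets (adjusted p = 0.204). MRPS18A in Caki-1 at 24 h was -0.047 after median centring, -0.026 with the mean of probe sets and -0.051 to 0.053 without 1 array, and in 769-P it was -0.058 at 6 h and -0.025 at 12 h with the mean of probe sets. MRPS18C in 769-P at 6 h was 0.038 after quantile normalisation and -0.097 to 0.106 without 1 array. For each of these the cause was not tested. With 3 arrays a group, the median SE was about 0.1 within a line and 0.1512 for differences between lines, and small changes cannot be resolved. Changes well above this SE also missed the threshold, such as MRPS30 in 769-P at 6 h, at -0.24 (adjusted p = 0.0659).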
